A study of Strongylocentrotus droebachiensis with 6 samples.

Results

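The genes described here encode 5 transcription factors of the oral ectoderm and ciliary band of the sea urchin embryo, Gsc, Not, FoxG, Lim1 and hnf6. They were chosen by name, as the 5 of 31261 rows of the expression table that carry those names. Whole-embryo polyadenylated RNA was sequenced from wild-type mesenchyme blastulae of Strongylocentrotus droebachiensis, the green sea urchin, a stage at which skeletogenic cells enter the blastocoel. One group was of half-size embryos, each raised from a single separated blastomere (3 samples). The other was of intact controls, siblings of the half-size ones (3 samples). Fertilised eggs were kept in aminotriazole (1 mM), which stops the envelope from hardening. When the embryos had reached 2 cells, at 3.5 hours, they were washed in calcium- and magnesium-free seawater for 15 min, and a syringe needle was used to part the blastomeres. The labels do not say whether control embryos also met the wash and the needle. Both groups were then cultured at 8 °C until 46 hours after fertilisation. The labels describe the tissue as explants in one phrase and as mesenchyme blastulae in the next.

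In sea urchins the oral (ventral) ectoderm is set up by Nodal, a secreted TGF-beta ligand, which also switches on BMP2/4 and the BMP antagonist chordin. BMP2/4 then patterns the opposite, aboral side. The ciliary band forms between these territories and carries much of the larval nervous system. Gsc (Goosecoid), a homeodomain repressor, and Not, another homeodomain factor, act in the oral ectoderm downstream of Nodal. FoxG is a forkhead factor and Lim1 a LIM-homeodomain factor of the oral ectoderm and its border. hnf6, a Onecut-class factor, is supplied maternally, is broadly present at first and later becomes restricted to the ciliary band. These roles come from work on other species, mainly Strongylocentrotus purpuratus and Paracentrotus lividus.

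Reads counted in genes, summed over all rows, came to between 1804336 and 2294541 in the half-size libraries. In the control libraries they came to between 2092936 and 2284097. These sums are not the number of reads sequenced. The unit below is the normalised read count, the number of reads of a gene divided by the authors' size factor for that library. Each of the 5 genes passed the low-value filter of a mean of 1, and each had between 80 and 799 reads in every library. Levels of different genes are not compared, since no gene lengths were used. The column headers give a library's group but no replicate number. Each half-size column deviated from its group mean together with 1 control column (r = 0.76, 0.63 and 0.52 across 11129 rows), and these matches are called pairs A, B and C. Over those rows the pair took 74.9% and the half-size or control group 9.0% of the sum of squares. The matches were chosen on the same rows to correlate most, so a large pair share is partly built in. The shares are also not divided by degrees of freedom, so they do not test whether pairs differ more than groups. The samples are RNA from whole embryos, so fewer cells of a type and less RNA per cell cannot be told apart.

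None of the 5 genes passed the test between half-size and control embryos. limma-trend over 18016 rows, at a Benjamini-Hochberg adjusted p under 0.05, called 0 of the 5, against 0 of all rows (0%). At an unadjusted p under 0.05 it again held 0 of the 5, against 242 rows (1.34%). When the pair entered as a block, limma-trend called 3 rows (0.0167%), and 5.27% of rows had an unadjusted p under 0.05. None of the 5 was among either. edgeR and DESeq2 on the recovered reads also called 0 of the 5, and over all rows edgeR called 0 of 11346 (0%) and DESeq2 4 of 17997 (0.0222%). With the pair as a block edgeR called 11 rows (0.097%) and DESeq2 22 of 5092 rows with an adjusted p (0.432%), again none of the 5. Of the 5 log2 differences 2 were negative and 3 positive, with a median of 0.022, and over all rows tested 50.1% were negative.

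**Figure D1:**
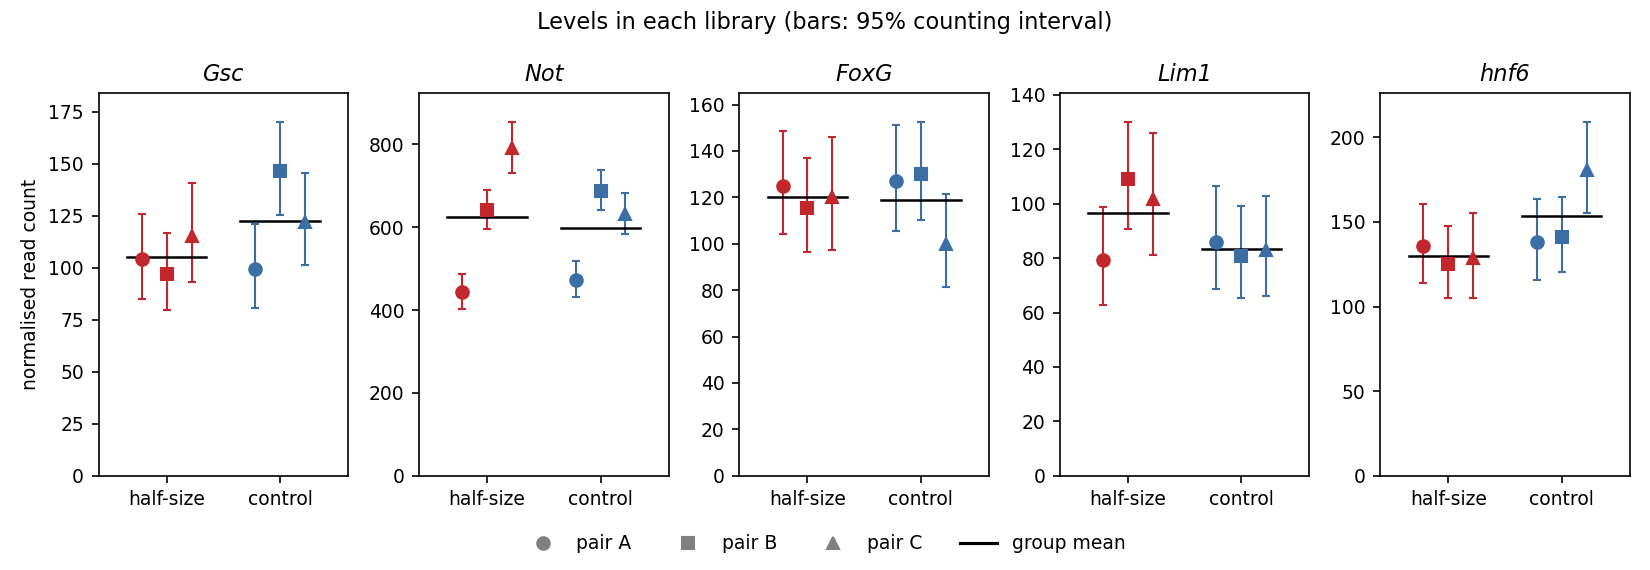
Normalised read count (y axis, linear from 0) of Gsc, Not, FoxG, Lim1 and hnf6 in the 3 half-size libraries (red) and the 3 control libraries (blue). Marker shapes give the pair, vertical bars the 95% counting interval and black lines the group means. Half-size and control points overlap for every gene except hnf6, whose half-size points all lie below its control points.

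In sea urchins Gsc represses aboral genes within the oral ectoderm. It had 104, 96.8 and 115 normalised read counts in the half-size libraries of pairs A, B and C, against 99.3, 146 and 122 in the control libraries of those pairs. The half-size values lay close together and overlapped the lower part of the control range, and the control library of pair B stood highest. Gsc averaged 105 ± 9.22 in half-size libraries and 123 ± 23.6 in controls (SD, n = 3 each). The log2 difference, half-size minus control, was -0.20 ± 0.23 (SE, limma-trend adjusted p = 1.00), with a 95% interval from -0.71 to 0.30. Within pairs it was 0.067, -0.59 and -0.082 in pairs A, B and C, so pair B carried most of it. Without pair B, in the blocked fit, the difference was -0.0073.

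Not differed more between pairs than between half-size and control embryos. Its normalised read counts were 444, 642 and 791 in the half-size libraries of pairs A, B and C, against 474, 688 and 632 in the control libraries. Both libraries of pair A stood lowest in their group, and the groups overlapped widely. The spread was wider than counting error, with a 95% counting interval from 404 to 487 in pair A's half-size library and from 732 to 854 in pair C's. The means were 626 ± 174 in half-size libraries and 598 ± 111 in controls (SD, n = 3 each). The log2 difference was 0.043 ± 0.25 (SE, limma-trend adjusted p = 1.00), with a 95% interval from -0.51 to 0.59. Within pairs A, B and C the log2 differences were -0.094, -0.10 and 0.32. The sign of the overall difference turned when single libraries were left out. It was -0.15 without pair C's half-size library, -0.12 without the control library of pair A, and -0.097 in the blocked fit without pair C. Markers of another cell type also parted pair A from the others. The 8 measured skeletogenic mesenchyme markers added up to 12349, 4313 and 4316 normalised read counts in the half-size libraries of pairs A, B and C, against 8598, 4151 and 5987 in the control libraries. Their part in the values of Not was not tested.

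FoxG was the steadiest of the 5 across libraries. It had 125, 115 and 120 normalised read counts in the half-size libraries of pairs A, B and C, against 127, 130 and 99.9 in the control libraries. All 3 half-size values fell inside the control range. The averages were 120 ± 4.76 in half-size libraries and 119 ± 16.6 in controls (SD, n = 3 each). The log2 difference was 0.022 ± 0.21 (SE, limma-trend adjusted p = 1.00), with a 95% interval from -0.45 to 0.49. It was -0.023, -0.17 and 0.26 within pairs A, B and C. Its sign turned negative without the control library of pair C (-0.098), without pair A's half-size library (-0.0063), without pair C in the blocked fit (-0.098) and after scaling to total reads (-0.019).

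Lim1 had a higher mean in half-size embryos. Its normalised read counts were 79.3, 109 and 102 in the half-size libraries of pairs A, B and C, against 85.95, 80.97 and 82.9 in the control libraries. The control libraries lay within 1.06-fold of each other. Of the half-size libraries, those of pairs B and C stood above every control and that of pair A below every control. The 95% counting interval of each half-size library nevertheless overlapped that of every control. In pair B it ran from 90.8 to 130 in the half-size library and from 65.4 to 99.1 in the control. The averages were 96.7 ± 15.6 in half-size libraries and 83.3 ± 2.51 in controls (SD, n = 3 each). The log2 difference was 0.20 ± 0.22 (SE, limma-trend adjusted p = 1.00), with a 95% interval from -0.30 to 0.70. Within pairs A, B and C it was -0.12, 0.43 and 0.29. Left-out libraries moved it to 0.11 (half-size of pair B) and 0.34 (half-size of pair A), and in the blocked fit it was 0.089 when pair B was dropped and 0.36 when A was.

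hnf6 was the 1 gene of the 5 whose groups did not overlap. It had 136, 125 and 128 normalised read counts in the half-size libraries of pairs A, B and C, against 138, 141 and 181 in the control libraries. The highest half-size value and the lowest control value were nearly equal, and the control library of pair C stood apart at the top. The 95% counting interval of that library, from 155.44 to 209, overlapped the one of pair A's half-size library, from 114 to 160, and lay just above those of pairs B and C, from 105 to 147 and from 105 to 155.37. Groups did not overlap in 509 of 11129 rows with a mean of at least 10 (4.57%). The averages were 129.7 ± 5.47 in half-size libraries and 153 ± 23.8 in controls (SD, n = 3 each). The log2 difference was -0.23 ± 0.21 (SE, limma-trend adjusted p = 1.00), with a 95% interval from -0.69 to 0.23. It was negative within every pair, at -0.025, -0.18 and -0.49 in pairs A, B and C. Differences had the same direction in every pair for 1 of the 5 genes, against 26.4% of the 11129 rows. Without pair C, in the blocked fit, the difference was -0.10, and without the control library of pair C it was -0.11.

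**Figure D2:**
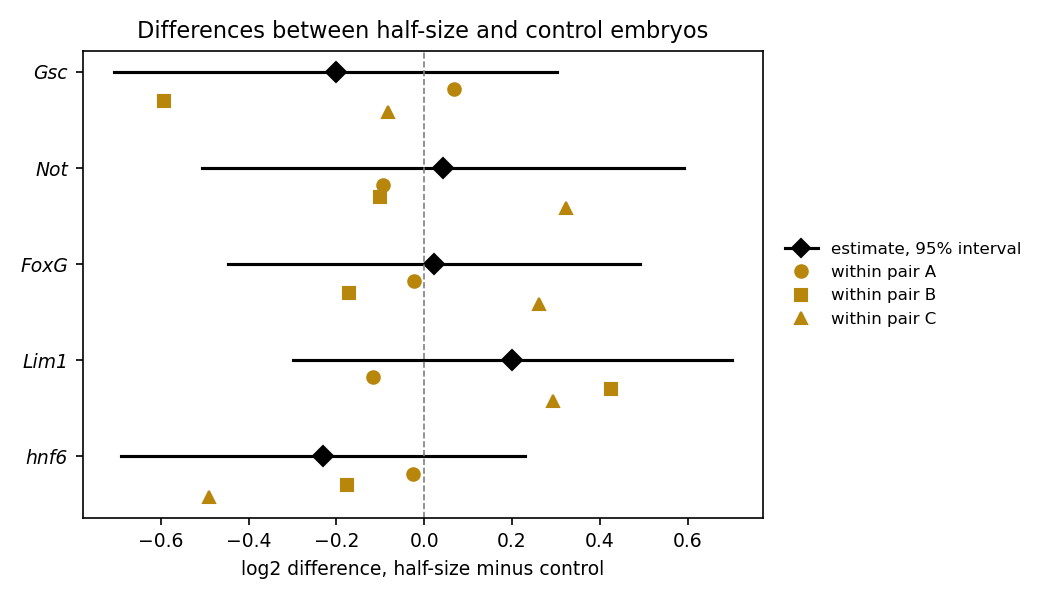
Log2 difference, half-size minus control (x axis), for each gene (rows). Diamonds and lines give the limma-trend estimate with its 95% interval, and the smaller markers the differences within pairs A, B and C. Every interval spans 0, and only hnf6 has all 3 pair differences on one side of 0.

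The intervals bound the size of difference that these 6 libraries allow. As a ratio of half-size to control on the scale of value plus 1, they ran from 0.612 to 1.23 for Gsc, from 0.704 to 1.51 for Not and from 0.733 to 1.41 for FoxG. For Lim1 the interval ran from 0.813 to 1.63 and for hnf6 from 0.62 to 1.17. A 2-fold difference in either direction thus lay outside each interval. These are intervals for single genes, with no correction for the number of genes. With the pair as a block the intervals were narrower, from 0.663 to 1.14 for Gsc, from 0.84 to 1.26 for Not, from 0.792 to 1.3 for FoxG, from 0.875 to 1.51 for Lim1 and from 0.669 to 1.09 for hnf6. The blocked intervals take the pairs, which were found from the values, as known. Every interval of both fits holds a ratio of 1. In the authors' deposited table the log2 fold changes were -0.22 for Gsc, 0.064 for Not, 0.012 for FoxG, 0.22 for Lim1 and -0.24 for hnf6. Each of these 5 rows has an adjusted p of 1.00 in the authors' deposited table, with SE from 0.26 to 0.29.

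The size of these differences was ordinary for the table. Among rows with a mean of at least 10, the median absolute log2 difference was 0.16. The share of those rows with a larger absolute difference was 35.1% for hnf6, 40.6% for Gsc and 40.8% for Lim1. It was 85.1% for Not and 92.0% for FoxG.

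The 5 genes differed in how much of their spread could be read as counting error. For FoxG the coefficient of variation over the 6 libraries was 9.14%, and counting alone would give 9.13%. For Not it was 21.5% against 4.02% from counting. Lim1 had 13.8% against 10.5%, hnf6 14.2% against 8.38% and Gsc 16.3% against 9.36%. Across rows whose mean reached 10 the median was 25.5%, so each of the 5 varied less than the median row. On the log2 scale the SD of FoxG lay at percentile 4.40 of those rows, hnf6 at 12.3, Lim1 at 12.4, Gsc at 18.98 and Not at 40.7. Rows were not matched for level in these rankings, and relative counting error falls as reads rise.

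The pair accounted for 88.1% of the sum of squares of Not on the log2 scale and the half-size or control group for 0.529%. In FoxG the pair took 47.5% and the group 0.773%. The group share was 24.8% in Gsc, 33.8% in Lim1 and 44.5% in hnf6, and the pair share 26.9%, 21.9% and 23.9%. These shares are not divided by degrees of freedom, of which the pair has 2 and the group 1. They are descriptions with no test, and the pairs were matched on values of the same libraries.

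**Figure D3:**
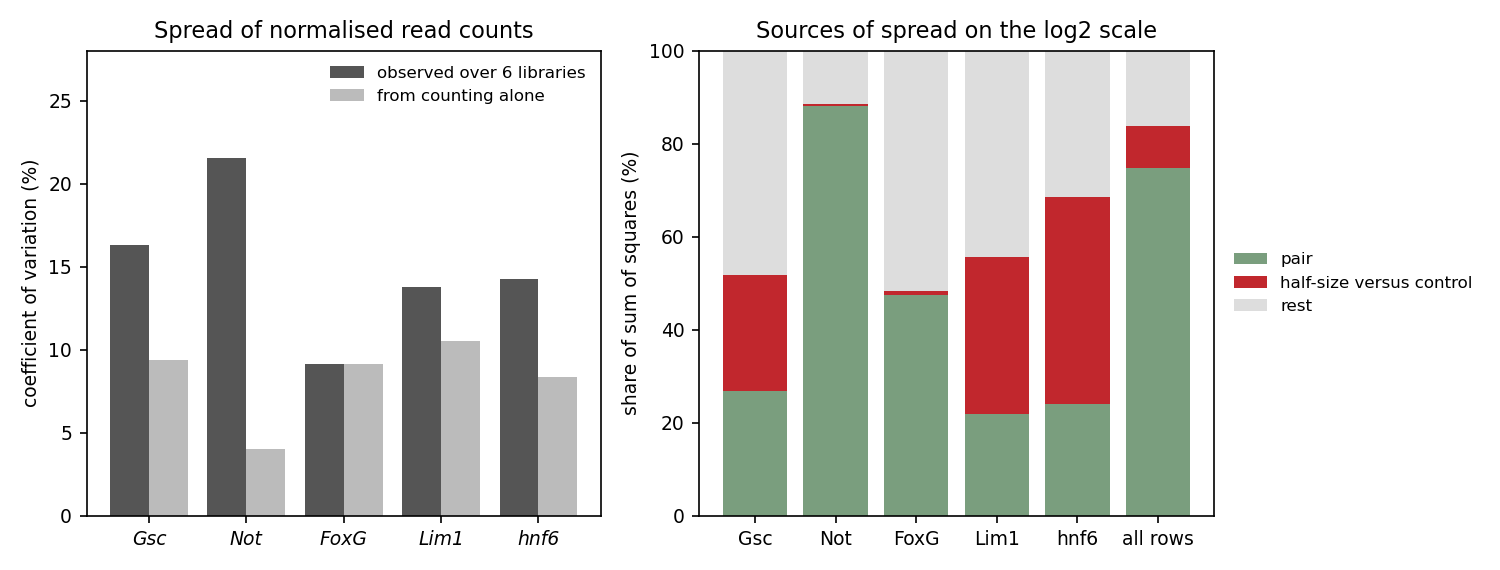
Left, coefficient of variation (%) of the normalised read counts over the 6 libraries (dark) and the value that counting alone would give (light). Right, share (%) of the sum of squares on the log2 scale taken by the pair, by half-size versus control and by the rest, for each gene and summed over 11129 rows. FoxG varied no more than counting gives, and Not varied mostly by pair.

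Levels of the 5 genes did not rise and fall together across libraries, but counting error limits what this can show. FoxG varied no more than counting gives (coefficient of variation 9.14% against 9.13%) and Lim1 little more (13.8% against 10.5%). Values of r and pair signs that involve them cannot decide whether a pattern is shared. Over the 6 libraries, which share the pair structure, Pearson's r between their log2 levels ran from -0.69 for FoxG and hnf6 to 0.52 for Not and Lim1. Gsc and Not, both oral homeodomain factors, also had r = 0.52. Within pairs, the differences of Gsc and Lim1 had opposite signs in each of the 3 pairs, and those of Not and FoxG had the same sign in each. Added together, the reads of the 5 genes came to between 888 and 1257 normalised read counts in half-size libraries and between 924 and 1187 in control libraries.

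The named rows most like each gene were sought among 191 rows with a gene name and a mean of at least 10, by Pearson's r of log2 levels over the 6 libraries. The values are descriptions over libraries that share their pairs. The rows named are the highest of 191 over only 6 libraries, so a high r is partly built in by the choice. FoxG varied no more than counting gives, so its nearest rows cannot show a likeness. Not was most like HE, the hatching enzyme gene (r = 0.97), and CycA, a cyclin A gene (r = 0.94). Like Not, both were lowest in pair A, and 9 of the 191 rows had r of at least 0.9 with Not. hnf6 was most like Sdc, a syndecan gene (r = 0.97), and FGFRL1, an FGF receptor-like gene (r = 0.91). FoxG was most like wnt1, a Wnt ligand gene, and blimp1/krox, an endomesoderm regulator (r = 0.91 each). For Gsc the nearest rows were Tbx2/3, an aboral ectoderm T-box gene (r = 0.88), and NHE, a sodium-proton exchanger gene (r = 0.86). For Lim1 they were cmas, a sialic acid activating enzyme gene (r = 0.87), and FSCN1, a fascin gene (r = 0.81).

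The other measured genes of oral ectoderm and Nodal signalling were BMP2/4, CHRD (chordin), dri, otx, FoxA, Hes and Sp-Smad2/3. Nodal and Lefty themselves were not analysed here. Of these 7 genes 6 had lower values in half-size embryos, with a median log2 difference of -0.079, and limma-trend called 0 in either direction. With the pair as a block it called 1 lower and 0 higher. That gene was dri, an ARID-family factor of oral ectoderm and skeletogenic cells, with 107 ± 38.6 normalised read counts in half-size libraries and 250 ± 94.5 in controls (SD, n = 3 each). It fell in the blocked fit (limma-trend adjusted p = 0.0469), and had an adjusted p of 1.00 without the block. Left-out pairs moved the blocked adjusted p, which was 0.114 when pair B was dropped, 0.00091 when A was and 0.00451 when C was. Hes, a helix-loop-helix repressor gene of the Notch pathway, had 265 ± 35.7 in half-size libraries and 370 ± 62.0 in controls (SD, n = 3 each). In the blocked fit its limma-trend adjusted p was 0.587. The groups of Hes and of dri did not overlap, as in 4.57% of all rows with a mean of at least 10. The BMP antagonist gene CHRD had a log2 difference of 0.33 ± 0.24 and the ligand gene BMP2/4 one of -0.079 ± 0.19. For otx, a homeodomain factor gene with broad ectodermal expression, it was -0.079 ± 0.16.

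Regulators of the aboral ectoderm, the territory opposite to the oral side, were lower in half-size embryos in 8 of 9 measured cases. Their median log2 difference was -0.46, against 0.022 for the 5 oral and ciliary band factors and -0.00047 over all rows tested. limma-trend called 0 of the 9 in either direction, with or without the pair as a block. The exception was Ets4, an ETS-family regulator of the hatching enzyme gene, whose place among aboral regulators was not established here. It had the largest absolute difference of the 9 (1.27 ± 0.54, SE) and was higher in the half-size library of each pair. Ets4 was chosen for naming after its value was seen. The Iroquois gene IrxA had 82.9 ± 8.24 normalised read counts in half-size libraries and 147 ± 15.6 in controls (SD, n = 3 each). Dlx, a distal-less homeobox gene, had 55.2 ± 14.8 in half-size libraries and 113 ± 39.1 in controls (SD, n = 3 each). Effector genes of the aboral ectoderm were split, with 2 of 4 measured lower and 2 higher and a median log2 difference of 0.012. The lower values of the regulators thus did not extend to these effectors. Whether the 5 factors differ from the aboral regulators as a group was not tested.

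Genes of the ciliary band and neural ectoderm were split, with 3 of 7 lower and 4 higher and a median log2 difference of 0.0017. limma-trend called 0 of the 7 in either direction, with or without the pair as a block. The apical neuroectoderm homeobox gene NK2.1 had 130.3 ± 67.7 normalised read counts in half-size libraries and 254 ± 95.1 in controls (SD, n = 3 each). FoxJ1, a regulator of motile cilia, had 257 ± 48.1 in half-size libraries and 192 ± 30.6 in controls (SD, n = 3 each). The log2 difference of the ciliary band factor hnf6 was -0.23, beside -1.03 for NK2.1 and 0.41 for FoxJ1. NK2.1 and FoxJ1 were named for their small p and lie on opposite sides of 0, so a value between them is not informative.

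**Figure D4:**
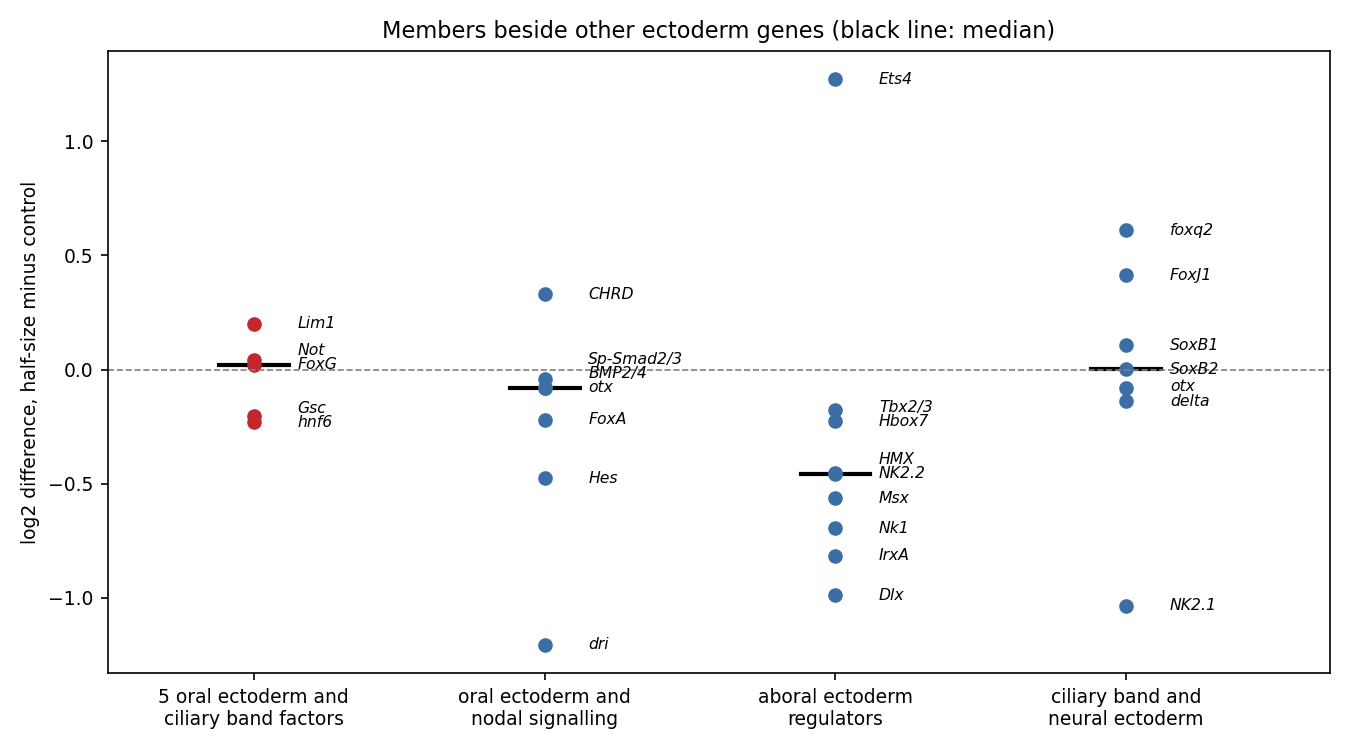
Log2 difference, half-size minus control (y axis), of the 5 oral ectoderm and ciliary band factors (red) and of the measured genes in 3 ectoderm lists (blue). Black lines are medians. The 5 factors lie between -0.23 and 0.20, the aboral regulators except Ets4 lie below 0, and otx stands in 2 lists.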

How the data were processed

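Libraries of polyadenylated RNA from 6 samples were prepared with a stranded kit, per the labels' protocols. Bowtie2 2.2.2, DESeq and edgeR are named, without a role, in the submitters' processing notes. Per the file headers, gene names follow the NCBI annotation of Spur_4.2, an assembly of Strongylocentrotus purpuratus, while the samples are Strongylocentrotus droebachiensis. Reads from genes that differ between the species may be lost in both groups. The counter and strand setting were not given in the sources used here. Values in the deposited table are a signal, gene read counts that the authors divided by a size factor. In each library 100% of values were whole multiples of a single step (tolerance 1e-06), so reads were recovered. The deposited table also holds the authors' log2 fold changes, test score and p-values, per the file headers, with no model named.

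limma-trend (limma 3.58.1, R 4.3.3) was fitted to log2(value + 1) for the 18016 rows whose mean reached 1, with Benjamini-Hochberg adjustment. Each log2 difference is half-size minus control. The scale understates changes of low genes. edgeR 4.0.16, with its own filter on low counts, and DESeq2 1.42.0 on recovered reads were alternatives. Other scalings, pseudocounts and filters, and fits without single libraries or pairs, stand in the closing section. Fits were tested on simulated data that held no differences between pairs, so those tests do not cover the pair structure of these libraries. Counting intervals are exact 95% Poisson intervals. They cover counting error only. Unblocked p-values measure the spread between the samples of a group, which includes the differences between pairs. Blocked p-values measure the spread that remains once pair and group are fitted. The SE, intervals and p-values given gene by gene are unblocked unless a block is named. The labels call the samples biological replicates without naming parents.

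To form pairs, half-size columns were matched to control columns so that deviations from group means correlated most on average (0.64, and 0.21 for the second-best matching). The paired columns are also neighbours in the table. The pairing comes from the values, and blocked p-values take no account of that choice.

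The 5 genes and the lists were chosen with earlier results of these data known, and Sp-Smad2/3 and blimp1/krox were added to the lists after the table was seen. Named genes are the 5 factors, the 2 genes of smallest p in each list, and BMP2/4, chordin, dri and otx. For likeness, the 2 named rows of highest r were taken for each gene.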

Additional observations from a re-analysis of the deposited data

How the results depend on the processing

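No fit could use the labels' replicate numbers, because the columns carry none, so pairs taken from the values serve as the replicate block. limma-trend's count of 0 called rows (242 at an unadjusted p under 0.05) stayed at 0 in edgeR, under both rescalings, both pseudocounts and both filters tried, and without each single library (range 0 to 0). DESeq2 called 4 rows. Under the replicate block the counts were 3 for limma-trend, 11 for edgeR and 22 for DESeq2. With the block and a pair left out it ran from 0 (without pair B) through 31 (without pair C) to 80 (without pair A). The cause was not tested. None of the 5 genes passed the threshold in any of 20 alternatives, and the smallest unadjusted p was 0.175, for hnf6. Gsc, Lim1 and hnf6 kept their sign in all 20. Over fits without 1 library or pair, Gsc ran from -0.34 to -0.0073, Lim1 from 0.088 to 0.36 and hnf6 from -0.33 to -0.10. Not turned negative in 3 alternatives and ran from -0.15 to 0.27 over these fits. FoxG turned negative in 4, from -0.098 to 0.12 over these fits (at most 0.091 without a single library) and -0.019 after scaling to total reads. That scaling moved the median of all rows to -0.038, against -0.00047 in the main scaling. The median of the 20 measured oral and aboral genes, with the 5 factors and without Sp-Smad2/3, which was added later, was -0.22 and ran from -0.29 to -0.21 without single libraries. With 80 to 124 reads of Lim1 a library, depth limits that gene most.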

Other observations

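Markers of the other cell types of the embryo were measured in the same libraries. Skeletogenic mesenchyme markers, 8 measured genes, added up to between 4313 and 12349 normalised read counts in half-size and between 4151 and 8598 in control libraries. Their median log2 difference was 0.0084, with 3 lower and 5 higher. P16, a gene of the skeleton-forming cells, had a log2 difference of 0.21 ± 0.39 (SE) and Alx1, their homeobox regulator, one of 0.11 ± 0.36. Of 5 endoderm markers, among them FoxA, which also stands in the oral list, 2 were lower and 3 higher. GATAe, an endoderm GATA factor gene, had 214 ± 53.1 normalised read counts in half-size libraries and 306 ± 10.2 in controls (SD, n = 3 each), and eve had a log2 difference of 0.32 ± 0.31 (SE). The pigment cell regulator gcm differed by -0.53 ± 0.56 and the mesodermal GATA factor gene GATAc by -0.059 ± 0.30. Among 4 aboral effectors, ARS, an arylsulfatase gene, differed by -0.61 ± 0.57 and SPEC1, a calcium-binding protein gene, by 0.21 ± 0.27. ARS had only 1 to 5 reads a library, near the floor. Its coefficient of variation was 48.3%, and counting alone would give 54.6%, so its difference is not informative. limma-trend called 0 genes of these 4 lists, with or without the pair as a block. Their part in the values of the 5 factors was not tested.

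Of 6 measured homeobox and forkhead genes outside the ectoderm set, 2 were lower and 4 higher. Alx1 and eve, counted above as skeletogenic and endoderm markers, are among them. The blocked fit singled out hox1, with 60.3 ± 10.2 normalised read counts in half-size libraries and 155 ± 26.9 in controls (SD, n = 3 each). It was the 1 gene of this list that the blocked limma-trend fit called (adjusted p = 0.0469, and 0.198 without pair B). That fit called 3 of 18016 rows (0.0167%). Without the block, which was drawn from the values, limma-trend did not call hox1. The forkhead gene foxx had 71.1 ± 36.7 in half-size libraries and 31.6 ± 20.7 in controls (SD, n = 3 each).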
